A study of Mus musculus with 18 samples.

Results

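The 9 libraries described here are the lymphomas of a mouse ATAC-seq series of 18 libraries, chosen by their label mPTCL (murine peripheral T-cell lymphoma). The labels give p53KO T cells that were placed in CD3KO recipients of the syngeneic C57BL/6 strain, and lymphoma cells sorted from the liver with no sort markers named. Each library was made from 10000 sorted cells. The titles tell the lymphomas apart by a number whose meaning is not given, and whether each came from its own mouse is not stated; mPTCL 1 to 9 follow the order of deposit and carry no other meaning. Wild-type C57BL/6 cells, in 3 libraries each, served only as a measure of ordinary spread: CD3+ thy1+ T cells of the spleen, NKT cells gated on CD3 and a CD1d tetramer, from the liver by their phenotype label although their titles carry the Sp of the spleen samples, and CD27- CD11b+ NK cells of the spleen. The ages of the mice are not in the labels. All groups share the C57BL/6 background.

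ATAC-seq inserts sequencing adapters into DNA that is free of nucleosomes, so a peak of reads marks open chromatin such as a promoter or an enhancer. The count of a region depends on how open it is and on how many copies of it the cells carry, and on how many of the sorted cells share that state, and these counts cannot tell these apart. Peripheral T-cell lymphomas are tumours of mature T cells. Cells without p53, which halts or kills cells after DNA damage, are known to tolerate gains and losses of whole chromosomes, and tumours of one kind can then differ from each other over whole chromosomes, over segments or at single genes.

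Counts in 61224 peaks were summed by gene symbol, scaled by TMM and written as CPM, counts scaled to the size of the library. Spread is the standard deviation (SD) of log2 CPM over the 9 lymphomas. Of 20325 symbols, the 14329 with a mean count of at least 50 were ranked by excess spread, which is the log2 ratio of a gene's SD to the SD usual at its mean level. Local spread is the same after the median deviation of the gene's chromosome in that lymphoma has been taken off. The genes with the largest and smallest spread were picked by these values, so their values describe them and carry no test.

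Depth differed between the lymphomas, with total counts in peaks from 670358 in mPTCL 8 and 1040523 in mPTCL 9 to 4844441 in mPTCL 7. The normal libraries ran from 417107 to 9097014, and the 3 NK libraries were the shallowest group. In all 18 libraries fewer counts were odd than even, with odd shares from 12.6% to 48.8%, so the counting error is larger than that of independent counts. Markers of the T lineage had counts in every lymphoma: all 32 genes of a T-cell receptor list had peaks, and none was at 0 in any lymphoma. Cd3e, a chain of that receptor, had 16.7 to 45.5 CPM. The list summed to between 2409 and 4042 CPM, against 3152 to 5397 CPM in the normal libraries. These include NK cells, so the sum does not mark the T lineage. The 22 of 32 listed NK receptor genes with peaks summed to 781 to 1140 CPM in lymphomas and 521 to 1021 CPM in normal cells. Markers of other cells also had peaks. The 6 of 10 listed B-cell genes with peaks summed to 130.1 to 248 CPM in lymphomas and 44.3 to 201 CPM in normal cells, and the 8 of 14 myeloid genes to 138 to 234 CPM in lymphomas and 101 to 197 CPM in normal cells. The 5 of 13 hepatocyte genes gave 48.3 to 103 CPM in lymphomas and 5.29 to 90.3 CPM in normal cells, with Cps1 at 0 in at least 1 lymphoma. The 5 of 10 erythroid genes gave 66.5 to 109 CPM in lymphomas and 49.6 to 98.2 CPM in normal cells.

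A typical gene differed little between lymphomas. The median SD was 0.37 on the log2 scale, 1 gene in 10 had an SD under 0.24, and 1 in 10 had one above 0.64. The median within normal groups was 0.35, but this nearness did not hold at every level. In the lowest of 20 classes of mean level the medians were 0.62 among lymphomas and 0.65 within normal groups. In the highest class they were 0.33 among lymphomas and 0.23 within normal groups. Only 311 genes, 2.17% of those ranked, had an SD above 1. After subtraction of the chromosome median, the median SD among lymphomas was 0.32. The spread fell with the mean level, which is why genes were ranked against a trend.

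**Figure D1:**
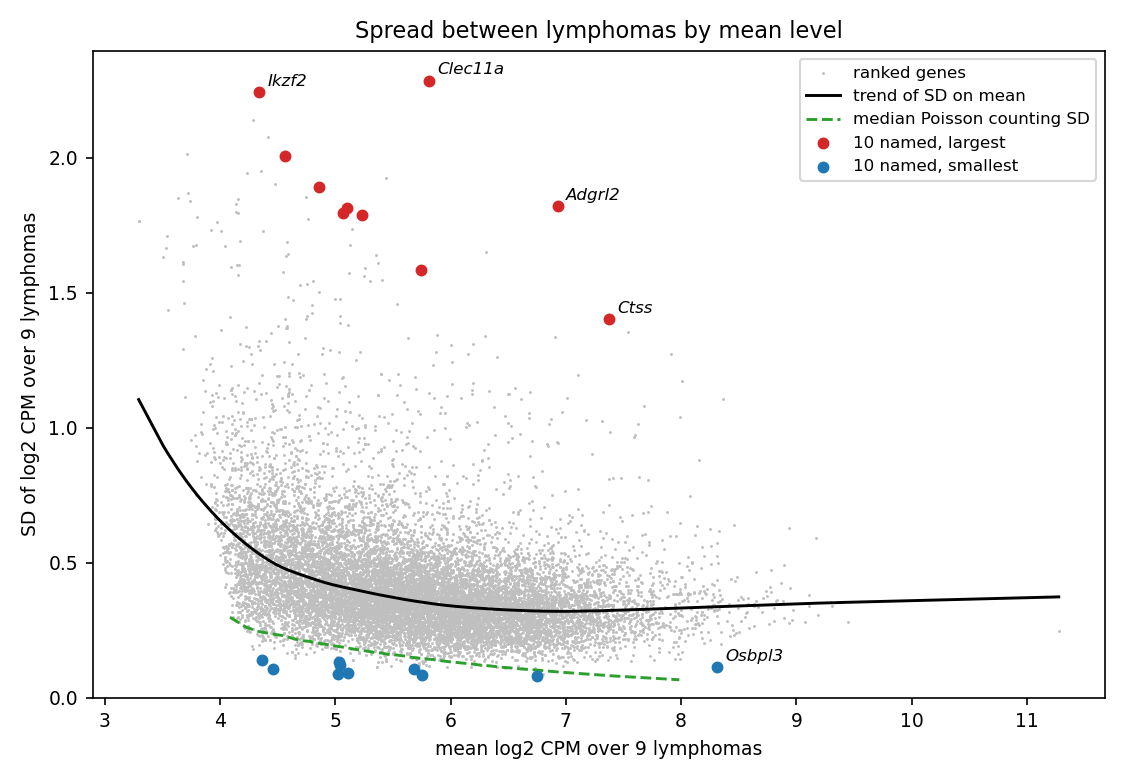
SD of log2 CPM over the 9 lymphomas (y axis) against the mean log2 CPM over the same 9 (x axis), with 1 grey dot for each of 14329 ranked genes. The black line is the trend, the dashed green line the SD that Poisson counting alone would give, red dots are the 10 named genes with the largest excess spread (SD 1.403 to 2.28) and blue dots the 10 with the smallest (SD 0.08 to 0.14), most of them under the dashed line.

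The largest excess spread belonged to Clec11a, which encodes a secreted C-type lectin that acts as a growth factor for blood progenitors and bone. Its summed signal had a lowest value of 5.2 CPM, a median of 124 CPM and a highest value of 244 CPM. It was nearly closed in mPTCL 2, 3 and 7 (6.3, 5.2 and 7.5 CPM) and open in the other 6 (121 CPM or more), with no value in between, while the normal libraries had 98.5 to 360.3 CPM. Both of its peaks, exonic by the deposited annotation and at chromosome 7, 44304852 to 44305352 and 44305394 to 44305894 (mm10), followed this split.

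Adgrl2, the adhesion receptor latrophilin 2, had the second largest excess spread among the named genes. It ran from 14.1 CPM over a median of 214 CPM to 375 CPM, and mPTCL 5, 6 and 9 formed the low end (14.1, 17.1 and 60.6 CPM). The normal libraries had 52.5 to 233 CPM, so 2 lymphomas lay below and 3 above that range. Ctss, the lysosomal protease cathepsin S, ran the other way: its median of 96.7 CPM lay near its lowest value of 69.2 CPM, and mPTCL 1, 2 and 5 stood above all the rest (819.5, 602.5 and 414 CPM, against 44.0 to 195 CPM in normal cells).

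Of the 4 transcription factors among the 10, Klf4, Nfib and Zfp78 were lowest in mPTCL 3, and Klf4, Nfib and Ikzf2 were highest in mPTCL 9. Ikzf2, which encodes Helios, had 0.95 CPM in mPTCL 1, a median of 19.7 CPM and 133 CPM in mPTCL 9; 5 lymphomas were below the range of the normal libraries (47.2 to 131 CPM). Klf4, a Krüppel-like factor that holds back T-cell division, had 1.5 CPM in mPTCL 3, a median of 64.8 CPM and 94.0 CPM in mPTCL 9, and mPTCL 2, 3 and 7 lay below the normal range of 36.4 to 133 CPM. Nfib, of the nuclear factor I family, ran from 4.0 CPM in mPTCL 3 over a median of 44.0 CPM to 262 CPM in mPTCL 9, and 3 lymphomas exceeded the highest normal library (63.3 CPM). Zfp78, a zinc-finger gene, had 1.0 CPM in mPTCL 3, a median of 52.7 CPM and 115 CPM in mPTCL 8, so all 9 lymphomas were below the normal range of 127 to 299 CPM.

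The remaining 3 of these 10 genes encode proteins of the membrane and of endocytosis. Slitrk5, a transmembrane protein known from neurons, had 9.6 CPM in mPTCL 6, a median of 75.9 CPM and 261 CPM in mPTCL 8. Lrp12, of the LDL receptor family, had 4.2 CPM in mPTCL 3, a median of 38.7 CPM and 153 CPM in mPTCL 2. Sh3bp4, an endocytic adaptor, had 2.7 CPM in mPTCL 3, a median of 20.3 CPM and 100.3 CPM in mPTCL 4, and 5 lymphomas were under the normal range of 39.6 to 122 CPM. Across the 10 genes the highest lymphoma exceeded the lowest by 11.8-fold (Ctss) to 140.3-fold (Ikzf2), and the lowest value was that of mPTCL 3 in Clec11a, Nfib, Klf4, Lrp12, Zfp78, Ctss and Sh3bp4. The SD expected from Poisson counting was 0.09 to 0.41 for these genes, below the measured 1.403 to 2.28 in each. Just outside the 10 stood Gm42671, a predicted gene, and Golph3l, with an excess spread of 2.06 each beside 2.07 for Sh3bp4, the last one inside. The naming rule passed over predicted and Riken genes of higher rank, such as D030024E09Rik at 2.35 and 4932412D23Rik at 2.32, and genes of chromosome 18, here Sema6a at 2.11. By local excess spread, 4 genes joined the highest 10: Golph3l, Ctsk and Plekho1 of chromosome 3, taken up with their segment, and Gpc5, a glypican gene of chromosome 14, which had 3.2 CPM in mPTCL 3, a median of 43.1 CPM and 218 CPM in mPTCL 8.

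The smallest excess spread belonged to genes whose levels nearly coincided in the 9 lymphomas. Usp39, a splicing factor, had 19.2 to 24.4 CPM with a median of 21.6 CPM, while the normal libraries ran from 4.3 to 39.6 CPM. Tmem177, a mitochondrial membrane protein, had 27.7 to 33.9 CPM (median 32.7 CPM), and Cops8, a subunit of the COP9 signalosome, 31.7 to 38.6 CPM (median 32.6 CPM). Tgoln1, a protein of the trans-Golgi network, had 48.2 to 59.1 CPM (median 53.1 CPM). The others were Arhgef33, Ltb4r1, Slc25a12, Sept10, Rcor2 and Osbpl3. Their SDs were 0.08 to 0.14, and in 9 of the 10 the SD was below the 0.10 to 0.24 of Poisson counting alone; Osbpl3, an oxysterol-binding protein gene with 21 peaks and 270.2 to 366 CPM, was the exception (SD 0.11 against 0.06), and on promoter peaks alone its excess spread turned from -1.58 to 0.31. Over all ranked genes, 108 (0.754%) had an SD below Poisson counting. The order at the low end cannot be read at this depth. After thinning every lymphoma to the smallest library 8 of the 10 were still in the lowest 10%, while all 10 genes of the high end were still in the highest 10%.

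The promoter windows of 6 of these genes are shown because a peak that follows the pattern of its gene overlaps each: Klf4, Sh3bp4 and Zfp78 from the variable end, Tmem177, Cops8 and Tgoln1 from the steady end. The overlap was only 21 of 300 bases for Zfp78 and 93 for Tgoln1, so most of the sequence shown for these lies outside the peak. Each runs 5′ to 3′ on the gene's strand from 250 bases before to 50 after the annotated start (RefSeq, GRCm38.p6), with CG dinucleotides in capitals. The positions are chr4:55532426-55532725 (minus strand) for Klf4, chr1:89070165-89070464 (plus strand) for Sh3bp4, chr7:6363058-6363357 (plus strand) for Zfp78, chr1:119913134-119913433 (minus strand) for Tmem177, chr1:90603175-90603474 (plus strand) for Cops8 and chr6:72616951-72617250 (minus strand) for Tgoln1.
Klf4: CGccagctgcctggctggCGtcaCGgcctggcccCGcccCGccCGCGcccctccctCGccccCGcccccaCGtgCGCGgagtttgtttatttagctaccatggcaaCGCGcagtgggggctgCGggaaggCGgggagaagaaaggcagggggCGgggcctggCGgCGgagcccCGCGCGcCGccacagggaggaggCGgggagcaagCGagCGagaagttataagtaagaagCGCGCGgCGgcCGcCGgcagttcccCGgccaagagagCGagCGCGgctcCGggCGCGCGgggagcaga
Sh3bp4: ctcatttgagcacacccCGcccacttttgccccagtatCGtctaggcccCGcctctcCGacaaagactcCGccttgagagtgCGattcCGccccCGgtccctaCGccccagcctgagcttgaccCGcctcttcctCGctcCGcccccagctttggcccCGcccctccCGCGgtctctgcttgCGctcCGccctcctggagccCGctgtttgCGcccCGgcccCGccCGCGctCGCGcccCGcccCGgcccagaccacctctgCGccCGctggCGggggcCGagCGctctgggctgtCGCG
Zfp78: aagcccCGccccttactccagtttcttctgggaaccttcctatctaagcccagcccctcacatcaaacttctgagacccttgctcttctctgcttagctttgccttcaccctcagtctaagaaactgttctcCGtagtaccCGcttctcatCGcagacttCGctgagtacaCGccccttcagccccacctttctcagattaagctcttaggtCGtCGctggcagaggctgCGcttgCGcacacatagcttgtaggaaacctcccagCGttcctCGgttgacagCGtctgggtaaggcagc
Tmem177: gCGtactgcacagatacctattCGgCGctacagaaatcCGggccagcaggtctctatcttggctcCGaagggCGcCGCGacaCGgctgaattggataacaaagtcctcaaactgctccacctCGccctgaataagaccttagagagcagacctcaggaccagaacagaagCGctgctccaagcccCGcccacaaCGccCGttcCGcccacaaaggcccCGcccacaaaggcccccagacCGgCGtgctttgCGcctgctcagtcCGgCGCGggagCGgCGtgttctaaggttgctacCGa
Cops8: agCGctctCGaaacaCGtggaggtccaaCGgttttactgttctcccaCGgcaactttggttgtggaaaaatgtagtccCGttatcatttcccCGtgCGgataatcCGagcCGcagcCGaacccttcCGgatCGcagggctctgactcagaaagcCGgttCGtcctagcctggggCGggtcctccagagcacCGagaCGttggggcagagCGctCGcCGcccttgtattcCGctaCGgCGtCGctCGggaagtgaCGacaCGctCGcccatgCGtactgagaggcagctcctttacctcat
Tgoln1: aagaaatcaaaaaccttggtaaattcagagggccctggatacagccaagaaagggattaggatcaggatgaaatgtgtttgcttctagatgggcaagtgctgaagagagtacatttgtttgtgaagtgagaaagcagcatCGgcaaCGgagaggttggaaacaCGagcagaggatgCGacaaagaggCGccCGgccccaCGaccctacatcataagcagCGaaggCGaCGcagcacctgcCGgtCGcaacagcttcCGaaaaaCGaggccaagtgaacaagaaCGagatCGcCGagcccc

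The variable windows held 40 (Klf4), 34 (Sh3bp4) and 13 (Zfp78) CG dinucleotides, and the steady ones 25 (Tmem177), 30 (Cops8) and 17 (Tgoln1), so both kinds of gene can have a CG-rich promoter. The Klf4 peak at chromosome 4, 55532562 to 55533062, had no count in mPTCL 2, 0.53 CPM in mPTCL 3 and 74.1 CPM in mPTCL 9. The Cops8 peak at chromosome 1, 90603293 to 90603793, had 33.4 to 41.1 CPM in all 9. A comparison of CG content over all ranked genes is void, because promoter sequences were at hand for 69.9% of them, under the 80% set as a minimum.

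Where a peak lay and how many peaks a gene had went with spread. Ranked one peak at a time against peaks of the same level, 7.10% of 9804 promoter peaks were in the highest 10% of excess spread, against 17.6% of 2043 intronic and 16.5% of 1107 intergenic peaks. Among genes, 4.90% of the 3060 with 1 peak were in the highest 10%, against 22.4% of the 964 with 9 peaks or more. Peaks within a gene are not independent, and no test was made of these shares.

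The first scale of variation was the chromosome. In nested sums of squares over the 14329 genes, 18.4% of the variation between lymphomas was shared by whole chromosomes, 12.4% by 5-Mb regions within them, and 69.1% was specific to genes, counting error included. In genes with at least 200 counts the chromosome share was 27.8% and the regional share 21.04%. After thinning the regional share was 20.7%, but the minimum of 50 counts was then applied to the thinned counts. That drops genes of low count as the 200-count setting does, so it is not a separate check. Within the normal groups the corresponding shares were 1.59%, 7.13% and 90.3%. If deviations were spread evenly over the units, the chromosome share would be 0.126%. The chromosome share differed between lymphomas, from 8.11% in mPTCL 8 to 30.1% in mPTCL 6, with 26.1% in mPTCL 5 and 25.5% in mPTCL 4. The gene-specific share was 78.5% in mPTCL 8 and 76.6% in mPTCL 9, the shallowest libraries, and the part of depth in the shares of single lymphomas was not tested.

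**Figure D2:**
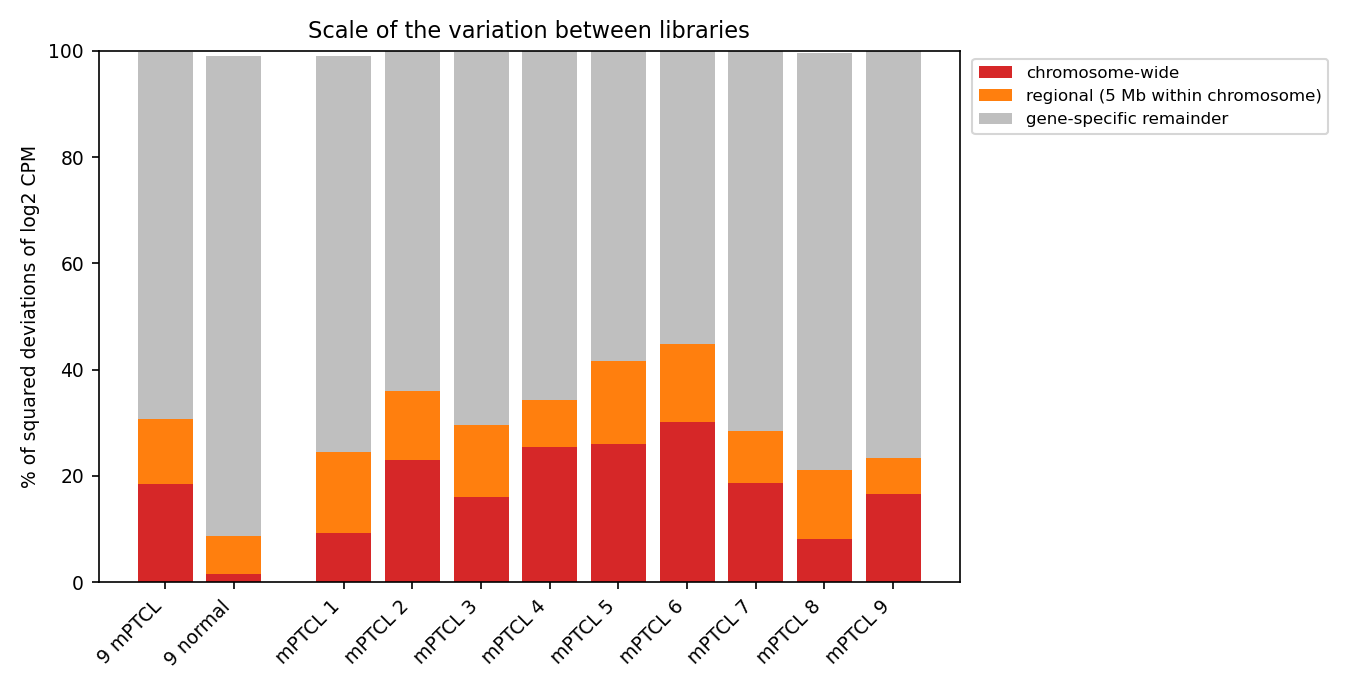
Percentage of the squared deviations of log2 CPM (y axis) that is chromosome-wide (red), regional within chromosomes (orange) or gene-specific (grey), for the 9 lymphomas together, the 9 normal libraries within their groups, and each lymphoma. The red part is 18.4% for the lymphomas and 1.59% for normal cells, and small library-wide shifts make up the rest to 100%.

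Chromosome 4 varied most. Its median deviation from the mean of the 9 ran from -0.28 in mPTCL 3 to 0.54 in mPTCL 6, with an SD of 0.28, against 0.03 within normal groups. Chromosome 15 was next with an SD of 0.25, and there mPTCL 2 alone stood high at 0.55 while mPTCL 6 was at -0.32. On chromosome 12 a single lymphoma, mPTCL 1 at 0.54, made most of the SD of 0.24, and mPTCL 6 followed at 0.26. Chromosome 13 split the lymphomas into 3 low ones (mPTCL 5, 6 and 9, from -0.24 to -0.35), mPTCL 4 at -0.04, and 5 high ones (0.14 to 0.30). Chromosomes 16 and 19 were both lowest in mPTCL 9, at -0.46 and -0.44. Chromosomes 1, 2 and 10 varied least, with SDs of 0.11, 0.12 and 0.12, and on chromosome 1 only mPTCL 4 stood out, at 0.25. The order from most to least variable was 4, 15, 13, 12, 14, 8, 19, 16, 5, 9, 17, 3, 18, 11, 6, 7, 10, 2 and 1; the SDs of chromosomes 8, 19, 16, 5, 9 and 17 all rounded to 0.22 and are not separable.

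The lymphomas carried different numbers of shifted chromosomes. A deviation beyond 0.25 in either direction was seen on 8 chromosomes in mPTCL 6, on 6 in mPTCL 5 and on 5 in mPTCL 9. It was seen on 3 in each of mPTCL 1, 2 and 3, on 2 in mPTCL 4, and on 1 in each of mPTCL 7 and 8. The largest deviation of any normal library from its group was 0.28, on chromosome 19. Deviations are taken against the mean of 9 tumours, so a change that all 9 share does not show.

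**Figure D3:**
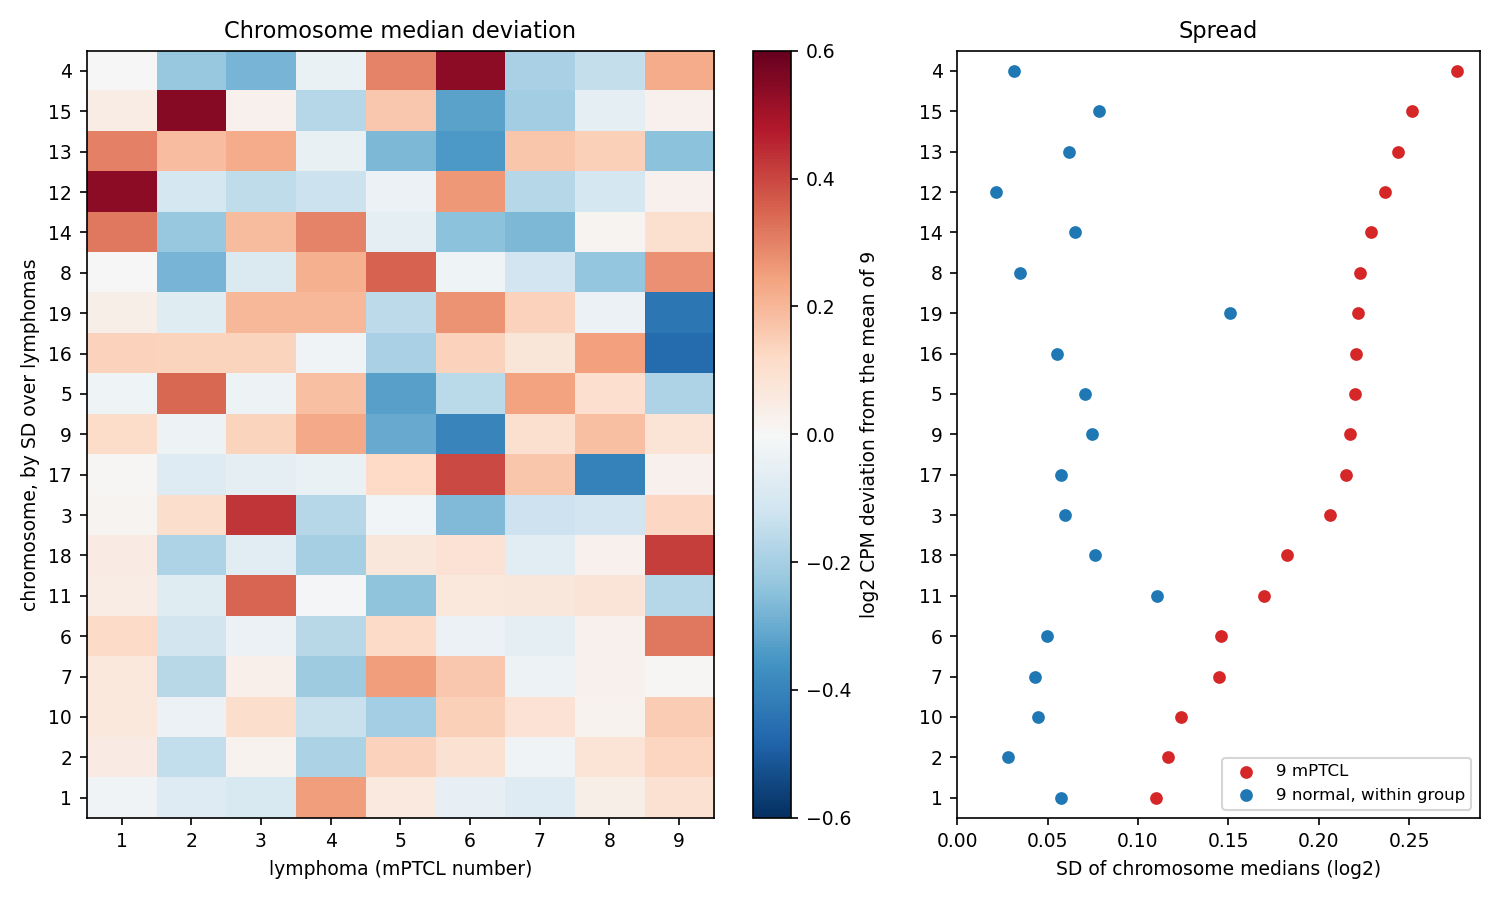
Left, median log2 CPM deviation of each chromosome (rows, ordered by SD) in each lymphoma (columns), red for above and blue for below the mean of the 9. Right, SD of these medians (x axis) for the 9 lymphomas in red and for the 9 normal libraries within their groups in blue; the red SD is the larger on all 19 chromosomes.

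The spread of chromosome medians was compared between lymphomas and normal libraries with an exact two-sided permutation test over all 48620 ways to assign 9 of 18 libraries, adjusted over 19 chromosomes. Spread was higher in lymphomas on 11 chromosomes (57.9% of those tested): 2, 3, 4, 5, 8, 9, 10, 12, 13, 14 and 16. The clearest were chromosome 12 (mean absolute deviation 0.180 in lymphomas and 0.018 in normal libraries, exact adjusted p = 0.0031), chromosome 13 (0.227 in lymphomas and 0.048 in normal libraries, exact adjusted p = 0.0031) and chromosome 4 (0.228 in lymphomas and 0.024 in normal libraries, exact adjusted p = 0.0068). Chromosomes 1, 6, 7, 11, 15, 17, 18 and 19 did not pass; on chromosome 15 the values were 0.178 in lymphomas and 0.064 in normal libraries (exact adjusted p = 0.083). No chromosome was less variable in lymphomas in this test, nor did any have a lower spread at an unadjusted p under 0.05. Separate animals are not named for the replicate libraries, whether lymphoma or normal, so these p-values measure only the spread between samples, which may be technical. Exact here means that every assignment was counted. Deviations from the mean of a small group depend on each other, so the values are not fully exchangeable and the p-values are approximate. The same limit holds for the limma tests of spread below.

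At the scale of 5 Mb, all bins with at least 10 peaks were compared. Their median SD was 0.25 among lymphomas and 0.12 within normal groups, and neighbouring bins moved together, with a correlation of deviations of 0.69 over 418 pairs of neighbours among lymphomas and 0.41 in normal libraries (a description, since bins share libraries). The median of the chromosome accounted for 54.3% of the variation of bins and local deviation for 45.7%. Once the chromosome median was taken off, the median SD was 0.14 among lymphomas and 0.10 in normal libraries, and the correlation of neighbours 0.32 and 0.22. A local SD of at least 0.3 was found in 29 bins among lymphomas and in 7 bins in normal libraries. In limma on the absolute deviations, 91 bins (19.6%) were more variable among lymphomas, of which 15 were on chromosome 13, 13 on chromosome 4, 11 on chromosome 5 and 10 on chromosome 14. With the chromosome median taken off, 12 bins passed (2.59%) and 3 of these were on chromosome 1. Leaving out single libraries moved the 91 to between 38 (without NKT 3) and 158 (without NK 1), and the 12 to between 4 (without T 2) and 24 (without NK 1). Without a normal library its group is a pair, whose absolute deviations are always equal, so these ranges are rough. No bin was less variable among lymphomas in either limma test; at an unadjusted p under 0.05 there were 0 such bins before and 3 after the subtraction.

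The 8 bins with the largest local SD show segments and single genes side by side. The bin at 95 to 100 Mb of chromosome 3 split the lymphomas: mPTCL 1, 2 and 5 lay at 0.79, 1.13 and 1.28, the other 6 between -0.74 and -0.24, with no overlap between the sets, and the local SD was 0.82 against 0.13 in normal libraries. This bin held 907 peaks, while the median bin held 100.5. It holds Ctss, Golph3l, Ctsk, which encodes cathepsin K, Plekho1, Arnt, which encodes the partner of the hypoxia factors, and Mcl1, which blocks cell death. Mcl1 had 673, 567.7 and 432 CPM in mPTCL 1, 2 and 5, against 117 to 133 CPM in the other 6 lymphomas and 75.5 to 149 CPM in normal cells. Arnt had 832, 703 and 732 CPM in the same 3 lymphomas, against 133 to 169 CPM in the other 6. Golph3l reached 1070.2 CPM in mPTCL 1 alone, with 495 and 436 CPM in mPTCL 2 and 5, and 87.8 to 142 CPM in the other 6. Ctsk had 335, 287 and 174 CPM in mPTCL 1, 2 and 5, against 27.7 to 62.8 CPM in the other 6, and in Plekho1, a phosphoinositide-binding protein gene, it was mPTCL 2 that was highest, at 588 CPM. Mcl1, Arnt, Golph3l and Ctss all showed the split, and mPTCL 1 was the highest of the 3 in each. Chromosome 3 as a whole did not follow it, since its median was 0.01, 0.10 and -0.02 in mPTCL 1, 2 and 5 and highest, at 0.43, in mPTCL 3.

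The 3 bins of chromosome 14 among the 8 hold few peaks. Ranked genes of bins are given here without predicted and Riken symbols. At 110 to 115 Mb, with 10 peaks, Slitrk5 was the one ranked gene, and mPTCL 3, 6 and 9 were low at -1.67, -1.69 and -1.65 while mPTCL 8 was at 1.90. At 105 to 110 Mb, mPTCL 1 was at 1.56 and mPTCL 6 at -1.07; the most variable gene was Spry2, an inhibitor of receptor kinase signalling, whereas Rbm26 and Ndfip2 had local SDs of 0.50 and 0.46 against 1.52 for Spry2. At 95 to 100 Mb, mPTCL 9 and 8 were highest at 0.80 and 0.51. The bin at 25 to 30 Mb of chromosome 10 was low in mPTCL 1 alone, at -1.18, with the next lowest lymphoma at -0.08. Of its 8 ranked genes, Ptprk, Arhgap18, Samd3, Akap7 and Rnf146 were all low there, with local deviations of -1.55, -1.21, -1.11, -1.09 and -1.03, while Epb41l2 was at -0.20, and the SD of the chromosome's median was 0.12. In the bins at 80 to 85 Mb of chromosome 4 and 65 to 70 Mb of chromosome 1, by contrast, Nfib (local SD 1.70) and Ikzf2 (2.18) far exceeded the next such gene (0.60 for Zdhhc21 and 1.04 for Myl1). The chromosome 4 bin is not a case of 1 gene, since it also holds a run of 11 peaks assigned to the predicted genes Gm12416 and Gm12414. That run had 4.8 CPM in mPTCL 3, against a median of 164 CPM in the other lymphomas. The eighth bin, at 175 to 180 Mb of chromosome 2, had 17 peaks and a normal local SD of 0.37, close to the 0.45 of lymphomas. The smallest local SDs, 0.03 to 0.04, were in bins of chromosomes 1, 5, 6 and 11 with 102 to 378 peaks, although the bin of chromosome 5, at 75 to 80 Mb, had an SD of 0.24 before its chromosome median was taken off.

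**Figure D4:**
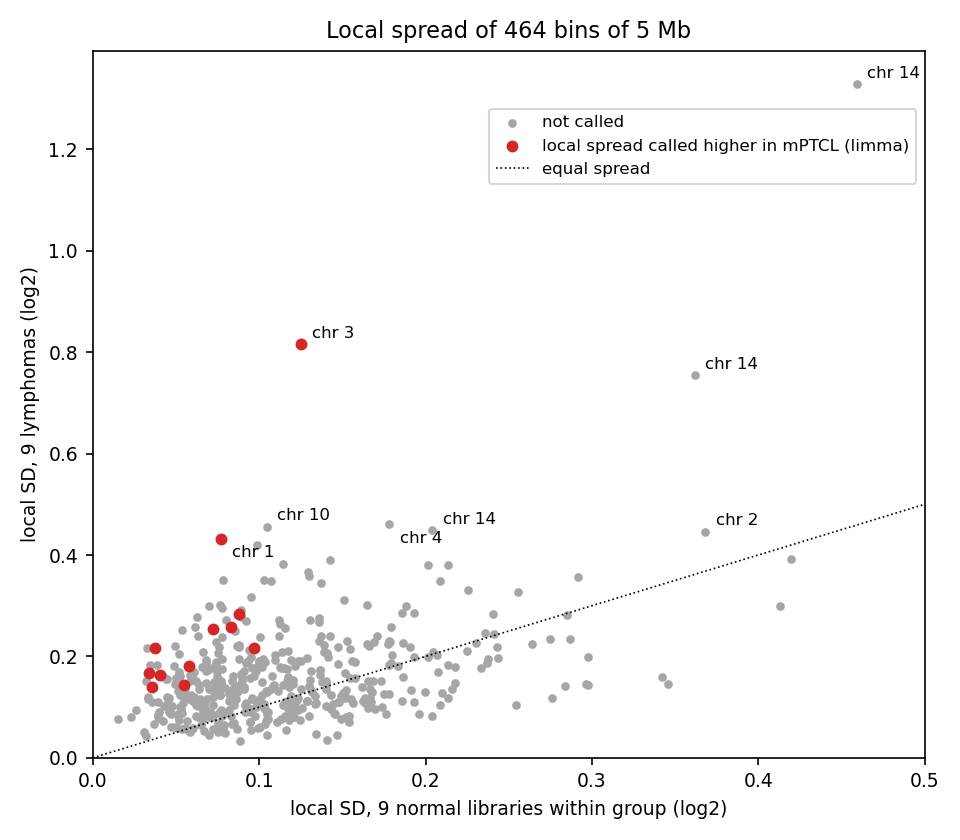
Local SD, after subtraction of the chromosome median, of bins of 5 Mb in the 9 lymphomas (y axis) against that within the normal groups (x axis), with labels on the 8 bins with the largest values among lymphomas. The 12 bins in red passed the limma test over all bins; the labelled bins were picked by the value on the y axis.

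Below the bin, runs of neighbouring peaks were traced, a search added after the data had been seen. A run is at least 4 consecutive peaks, each with 20 or more counts on average in the other libraries, that all lie at or under -2, or all at or above 1.5, on the log2 scale relative to the median of the other lymphomas. There were 36 lower and 43 higher runs in the lymphomas. The same search within normal groups found 4 lower runs, all in NKT 1, and 1 higher run, in NKT 3. Each normal library is there set against 2 others, and each lymphoma against 8. The median count of a peak was 4, 4 and 6 in NK 1, 2 and 3, and 8, 10 and 20 in T 1, 2 and 3. Many peaks of these groups were thus under the minimum of 20 counts, so the numbers of runs in lymphomas and normal libraries cannot be compared. Of the higher runs, 25 were on chromosome 3, in mPTCL 1, 2 and 5; outside it there were 18. With a minimum of 6 peaks, 12 lower runs remained in 4 lymphomas, and all 14 higher runs were on chromosome 3. The numbers differed between lymphomas: mPTCL 6 and 3 had 12 and 10 lower runs, and mPTCL 2 had 21 higher and 0 lower runs.

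The lower run with the most peaks, 16, was in mPTCL 1 on chromosome 15 and adjoined a second one. From 60692689 to 61582687, 890.0 kb, the 2 runs, of 20 peaks in all, held 36 counts, or 18.4 CPM, where the medians of the other lymphomas summed to 286 CPM. The stretch itself overlaps the protein-coding genes Lratd2 and A1bg, and its peaks are assigned to Lratd2 and to predicted and Riken genes. The next protein-coding gene in RefSeq GRCm38.p6 beyond the end of this stretch is Myc, the growth-promoting transcription factor, 403 kb away at 61985341 to 61990361. Whether the stretch has to do with Myc was not tested. The peaks assigned to Myc itself had 163 CPM in mPTCL 1, against 110 to 275 CPM in the other 8 lymphomas and 58.3 to 96.4 CPM in normal cells.

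Some runs returned in more than 1 lymphoma. Neighbouring stretches over Adgrl2 on chromosome 3 were low in mPTCL 5 and 6. A run beside them, with no assigned gene, was low in mPTCL 6 alone. A stretch on chromosome 13 from 60737939 to 60937021, which holds Ctla2a and Ctla2b, was low in mPTCL 5 and 6. Part of it was high in mPTCL 2. Ctla2a had 0.54 and 0.43 CPM in mPTCL 5 and 6, against 1.8 to 35.8 CPM in the other 7 lymphomas. The stretch over Slitrk5 was low in mPTCL 6 and 9. A stretch of chromosome 5 with no assigned gene was low in mPTCL 5 and 9, and the next gene beyond it is Tbx3, a T-box factor, 262 kb away. In all, 5 of 30 stretches with lower runs and 7 of 28 with higher runs were shared by 2 or more lymphomas. Apart from those at Ikzf2 and Bcl2, the shared higher stretches were pieces of the chromosome 3 segment of mPTCL 1, 2 and 5. Neighbouring pieces, such as those at Adgrl2 among the lower runs, were counted apart. These counts are therefore not numbers of separate events. A stretch assigned to Ikzf2 went both ways: it had 2.40 CPM in mPTCL 3, against a median of 45.4 CPM in the other 8, and 67.8 and 154 CPM in mPTCL 4 and 9, against a median of 15.2 CPM in the other 8 of each.

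A stretch assigned to Bcl2, the founding inhibitor of cell death, was high in 3 lymphomas. From 106600700 to 106712646 of chromosome 1, its 4 peaks summed to 85.5, 100.3 and 103 CPM in mPTCL 3, 4 and 7, against a median of 20.4 CPM in the other 8 of each. The whole gene, with 12 peaks, had 174, 215 and 176 CPM in these lymphomas and 180 CPM in mPTCL 8, but 41.4 to 72.4 CPM in the other 5. The normal libraries had 155 to 296 CPM, so 5 lymphomas lay below all of them and the 4 high ones lay within their range. The stretch was picked from these same lymphoma values, so Bcl2 is given without a p for its spread. Bcl2 was among the genes whose spread was tested as higher in lymphomas. Its mean absolute deviation was 0.97 in lymphomas and 0.12 in normal libraries, a difference of 0.85 ± 0.10 (SE, limma).

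That test covered 20314 genes. With limma on absolute deviations within groups, 112 genes were more variable among lymphomas (0.551%) and 8 were less variable (0.0394%), 0.591% in all, while the median deviation over all genes was 0.36 in lymphomas and 0.34 in normal libraries. In 20 gene lists, 8 genes passed, all of them more variable among lymphomas. A pair of p53 targets was among them. Pmaip1, which encodes the death-promoting protein NOXA, had 0.47 CPM in mPTCL 1, a median of 19.5 CPM and 36.9 CPM in mPTCL 9; mPTCL 1, 3, 6 and 7 had at most 1.9 CPM and the other 5 at least 19.5 CPM, with nothing between, while normal libraries had 7.9 to 29.9 CPM (difference in spread 1.77 ± 0.19, SE, limma adjusted p = 4.2e-05). Plk2, a polo-like kinase, had 3.2 CPM in mPTCL 3 and 6, a median of 20.6 CPM and 51.3 CPM in mPTCL 8, and the same mPTCL 1, 3, 6 and 7 formed its low end at 7.9 CPM or less, against 29.7 to 72.4 CPM in normal libraries (difference 1.13 ± 0.17, SE, limma adjusted p = 0.0023). Both genes have 1 peak and a mean count under 50, so neither entered the ranking. The 5 others beside Bcl2 were Zfp608 and Zfp939 (limma adjusted p = 0.048 each), and Mcl1, Ikzf2 and Crtam, which were named for their spread among the lymphomas and are given here without a p. With every library thinned to the smallest, 67 genes were more variable among lymphomas, and without mPTCL 5 it was 50.

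The lists differed in how many members were spread out at their level, read against the 10% of all ranked genes that each end holds by construction. The NK receptors, which carry activating or inhibitory signals and are also found on some T cells, had the largest median excess spread among the lymphocyte lists, 0.55, with 7 of 14 ranked members in the highest 10% and 0 in the lowest. Their median SD was 0.54 among lymphomas and 0.48 within normal groups, and 1 of 22 tested members was more variable among lymphomas. Crtam led with 7.0 CPM in mPTCL 9, a median of 61.5 CPM and 86.0 CPM in mPTCL 8, and mPTCL 5, 6 and 9 formed its low end (at most 15.5 CPM). Tigit, an inhibitory receptor, had 17.5 CPM in mPTCL 6, a median of 53.1 CPM and 89.8 CPM in mPTCL 2, with the same 3 lymphomas lowest. Klrc1, which encodes NKG2A, had 21.7 to 103 CPM with a median of 41.9 CPM. Of genes of homing and tissue residency, 6 of 16 were in the highest 10% and 1 in the lowest (median excess 0.40). Itga4, an integrin chain, had 16.0 CPM in mPTCL 6, a median of 68.6 CPM and 101 CPM in mPTCL 8. Itgal, the integrin chain of LFA-1, was the steady exception at 20.2 to 31.6 CPM.

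Genes of the T-cell receptor complex and its signalling had 6 of 26 in the highest 10% and 3 in the lowest. The costimulatory receptor Cd28 had 9.0 CPM in mPTCL 6, a median of 57.6 CPM and 84.4 CPM in mPTCL 7, and the inhibitory receptor Ctla4 12.3 CPM in mPTCL 9, a median of 36.4 CPM and 97.1 CPM in mPTCL 7. The kinase gene Prkcq was steady at 99.9 to 152 CPM. Cd28 was lowest in mPTCL 6 and 9, Ctla4 in mPTCL 9 and 6, and the mean deviation over the list was lowest in mPTCL 5 (-0.38) and mPTCL 9 (-0.24) and highest in mPTCL 7 (0.30). Among cytotoxic effectors 3 of 16 were in the highest 10%, and among NK and effector transcription factors 4 of 18, of which Klf4 and Ikzf2 stand among the 10 genes above, while Tbx21 of the same list, which encodes T-bet, had 129 to 241 CPM (median 183 CPM). Lineage factors of T cells had a median excess of -0.04, which turned to 0.18 with the chromosome median subtracted and to 0.19 on promoter peaks alone, with 2 of 18 in the highest 10%, and Gata3, a factor of T-helper cells, had 97.2 to 184 CPM (median 134 CPM). Genes of chronic stimulation had 4 of 19 in the highest 10%, and NK receptor signalling 2 of 12 with a median of 0.24.

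Lists of general function had a negative median excess. Cell cycle and growth genes had a median excess of -0.10 with 7 of 32 in the lowest 10%, among them Plk1, a mitotic kinase (15.6 to 27.0 CPM), while Cdk6, a kinase of the G1 phase, was their exception with 60.7 CPM in mPTCL 5, a median of 155 CPM and 252 CPM in mPTCL 4. Housekeeping genes had a median of -0.15, with 0 of 24 in the highest 10% and 2 in the lowest. Ribosomal protein genes had -0.12, with 6 of 83 in the highest 10% and 8 in the lowest. Zinc-finger genes had -0.14, with 23 of 231 in the highest 10% and 26 in the lowest. The last 2 lists thus lay near the 10% of all ranked genes at both ends. Rps27, a ribosomal protein gene with 1 peak, had 0 counts in mPTCL 8, which allows up to 3 counts there, and 19.5 to 41.0 CPM in the other 8. Ranked p53 targets had a median of 0.06 with 1 of 20 in the highest 10% and 2 in the lowest, one of which was Mdm2, the ligase that degrades p53 (48.2 to 71.4 CPM). Genes mutated or rearranged in T-cell lymphoma had a median of 0.10 with 5 of 44 in the highest 10% and 4 in the lowest. Olfactory receptor genes had 3 of 11 in the highest 10%.

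Among markers of other cells, 3 of the 4 ranked endothelial and stromal genes were in the highest 10%, with a mean deviation over the list from -1.06 in mPTCL 9 to 0.53 in mPTCL 1. It was -0.58 in mPTCL 6 and -0.56 in mPTCL 5, so the list was lowest in the 3 lymphomas that were also lowest for Crtam, Tigit and the mean of the T-cell receptor list; its part in those results was not tested. Its median SD was 0.76 among lymphomas and 0.76 within normal groups. The 7 of 12 listed genes with peaks summed to 152 CPM in mPTCL 9 and 273 CPM in mPTCL 1, within 102 to 271 CPM of the normal libraries but for the highest, and Tek was at 0 in at least 1 lymphoma. B-cell markers had 1 of 3 in the highest 10%, myeloid markers 1 of 3, hepatocyte markers 1 of 2 and erythroid markers 0 of 3. Pecam1, an adhesion molecule of endothelium that T cells also carry, was lowest in mPTCL 5, 9 and 6 (37.7, 41.3 and 56.6 CPM), the lymphomas in which Crtam and Tigit were lowest. The part of other cells in the spread of these lists was not tested beyond the relations that follow.

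Each lymphoma was also set against the other 8 with edgeR's quasi-likelihood test over 16354 genes, with Benjamini-Hochberg adjustment in each of 9 fits. The lone library is taken to vary like the other 8. In mPTCL 6, 1 gene was higher (0.00611% of genes) and 6 were lower (0.0367%), 0.0428% in all. Id3, an inhibitor of E-protein transcription factors, had 295 CPM in mPTCL 6, against 69.6 to 136 CPM in the other 8 (log2 fold change 1.598). Id3 is on chromosome 4, whose median was highest in mPTCL 6, at 0.54. Its excess spread among the lymphomas was 0.91, and 0.56 with the chromosome median subtracted. Tanc1 had 4.9 CPM in mPTCL 6, against 37.7 to 87.0 CPM in the other 8 (-3.63, adjusted p = 0.014). Pkp4, a plakophilin of cell junctions, had 12.2 CPM, against 77.3 to 189 CPM (-3.34, adjusted p = 0.014), and Ppfibp2, a liprin, had 12.2 CPM, against 80.8 to 165 CPM (-3.27, adjusted p = 0.014). Tanc1 and Pkp4, like Ccdc148, a further one of the 6, are on chromosome 2. In mPTCL 8, 3 genes were higher than in the other 8 (0.0183%): Ccl3, an inflammatory chemokine (147 CPM, against 24.6 to 37.4 CPM; 2.16, adjusted p = 0.010), 8030423F21Rik (83.2 CPM, against 7.3 to 16.8 CPM; 2.87, adjusted p = 0.030) and Nefm, a neurofilament gene (152 CPM, against 15.3 to 44.0 CPM; 2.65, adjusted p = 0.040). In mPTCL 2, 1 gene was higher (0.00611%), Sv2a, a vesicle protein in the chromosome 3 segment (328 CPM, against 23.9 to 81.9 CPM; 3.10, adjusted p = 0.0022). edgeR called no gene in mPTCL 1, 3, 4, 5, 7 and 9, while DESeq2 called some in mPTCL 1, 3, 5 and 7. In mPTCL 2, 6 and 8, DESeq2 called 10, 36 and 8 genes, against 1, 7 and 3 by edgeR. No gene was called by edgeR in more than 1 lymphoma, but so few were called that this lack of overlap carries no information. A second deviating lymphoma would also be among the other 8 and widen their spread.

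Principal components of the 14329 genes gave no single axis: the first 3 held 24.6%, 19.8% and 13.7% of the variation. On the first, mPTCL 8 and 2 (53.01 and 23.0) stood opposite mPTCL 6, 5 and 9 (-35.5, -33.8 and -17.6). Adgrl2 had the largest positive weight there and Hand2 the largest negative one. Hand2 had 0 CPM in mPTCL 8, the shallowest lymphoma. So had Ank1, Rab4a and Rps27, which were also among the 10 largest negative weights. On the second, mPTCL 9 and 8 (44.5 and 28.7) stood opposite mPTCL 3, 7, 4 and 2 (-30.5, -25.1, -17.2 and -12.9), and Clec11a, Nfib, Zfp78, Klf4, Sh3bp4 and Ikzf2 were all among its 10 largest positive weights. The size of a lymphoma's deviations (root mean square over genes) was largest in the shallowest libraries, 0.56 in mPTCL 8 and 0.50 in mPTCL 9, and smallest in the deepest, 0.33 in mPTCL 7. Over the 9 lymphomas it went with log2 total count at Pearson r = -0.76 (exact permutation p = 0.018) and Spearman rho = -0.68 (exact permutation p = 0.050), and with r = -0.77 without mPTCL 8 and 9, the 2 farthest from the median depth. Over the 9 relations computed, which also covered both axes, the promoter share of counts and the mean deviation of markers of other cells, none passed adjustment: the adjusted exact permutation p was 0.12 for this one. The second axis had r = -0.70 with depth (exact permutation p = 0.035, rho = -0.68, adjusted p = 0.12; -0.79 without the 2) and r = -0.69 with markers of other cells (exact permutation p = 0.040, rho = -0.55, adjusted p = 0.12; -0.69 without mPTCL 6 and 9). With every lymphoma thinned to the depth of the smallest, the second axis had r = -0.83 with the original depth (exact permutation p = 0.0065, adjusted p = 0.059) and -0.50 with markers of other cells, and the size of deviations had r = -0.63 with the original depth. In the thinned counts mPTCL 8 and 9 still had the largest deviations, 0.51 and 0.49.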

How the data were processed

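The deposited counts are whole-number read counts per peak of 500 bp, not normalized, for all 18 libraries on mouse build mm10; MACS2 2.1.2, bedtools and edgeR 3.24.3 were among the tools, per the submitters' processing notes. Aligner, duplicate removal and peak selection: not given in the sources used here. The deposited table holds the 19 autosomes. The members and lists were chosen with earlier results of these data known.

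Counts of the 61224-peak table were summed by deposited gene symbol, a peak with several symbols counting toward each (10.5% of peaks), and 1 symbol found on several chromosomes was left out. TMM scaling over the 9 lymphomas and log2 CPM with a prior count of 2 were used for lymphoma values; scaling over all 18 libraries, for the tests against normal cells, moved a lymphoma's values by at most 0.03 (median over genes). Gene CPM are scaled to the summed gene counts of a library and peak CPM to its peak counts. The SD trend was a lowess fit (span 0.3) of log2 SD on mean log2 CPM. Positions are printed as deposited; whether they count from 0 or 1 is not stated.

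The spread tests used limma 3.58.1 on absolute deviations from the group mean, scaled for group size, lymphoma against normal, and for chromosomes an exact permutation test. Each lymphoma against the other 8 used the quasi-likelihood test of edgeR 4.0.16 under R 4.3.3, with DESeq2 1.42.0 as an alternative; the threshold was an adjusted p of 0.05, two-sided. Genes were named by rank of excess spread and local excess spread, skipping genes that share peaks and predicted genes and chromosome 18, by highest and lowest member of each list, by p in the 9 single fits, and bins by local SD; other list members, genes of the segments and runs, and Myc, were chosen after their values were seen. Counting limits use 3 counts and cover counting error only, since PCR reads are not independent molecules. The scripts were tested on simulated data.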

Additional observations from a re-analysis of the deposited data

Results flagged for a closer look

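Among 78 sets of 9 values checked for a sample far from the rest (named genes, chromosomes, list means, named bins and axes), 3 stood out; chance alone gives about 1 in 20. The median deviation of chromosome 18 was 0.41 in mPTCL 9, and the next highest lymphoma was mPTCL 6 at 0.09. The local deviation of the bin at 25 to 30 Mb of chromosome 10 was -1.18 in mPTCL 1, and the next lowest was mPTCL 4 at -0.08. In the steady bin at 125 to 130 Mb of chromosome 6 it was 0.10 in mPTCL 2, and the next highest was mPTCL 7 at 0.02.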

How the results depend on the processing

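The 112 genes more variable among lymphomas became 67 after thinning and 68 over genes averaging 50 counts or more, and 50 to 135 when single libraries were left out (50 without mPTCL 5, 61, 69 and 68 without NKT 1, 2 and 3). The 91 bins became 42 in the smaller table, and 38 to 158 without single libraries (138 without mPTCL 1 or 7, 44 and 59 without T 1 and 3, 44, 43 and 38 without NKT 1, 2 and 3, 158 and 54 without NK 1 and 2). The 12 local bins became 3 after thinning, 6 in the smaller table and 24 with 2-Mb bins, and 4 to 24 without single libraries (23 without mPTCL 3, 4 or 7, 22 without mPTCL 9, 7 without mPTCL 5, 4 without T 2, 5 without NKT 1 or 3, 24 without NK 1). The 11 chromosomes became 11 to 14. The chromosome-wide share was 27.8% in genes with at least 200 counts and 17.0% to 20.3% without single lymphomas. The regional share was 19.1% with 2-Mb and 8.99% with 10-Mb bins, 21.04% with at least 200 counts, 20.7% after thinning and 11.9% to 13.2% without single lymphomas. The gene-specific share was 48.8% with at least 200 counts, 52.7% after thinning and 67.6% to 70.4% without single lymphomas. For the thinned shares the minimum of 50 counts applied to the thinned counts, so genes of low count were dropped there too. Against the other 8, DESeq2 called 10, 10, 8, 17, 36, 2 and 8 genes in mPTCL 1, 2, 3, 5, 6, 7 and 8. With no filter edgeR called 2, 1 and 4 in mPTCL 3, 5 and 6, and with TMM within each chromosome 1 in mPTCL 5 and 1 in mPTCL 8. Osbpl3 reversed, with an excess spread of 0.31 on promoter peaks alone. With the chromosome median subtracted, the median excess of lists was 0.52 for NK receptor signalling, 0.43 for T-cell receptor genes, 0.18 for T-cell factors, 0.40 for NK and effector factors, 0.44 for chronic stimulation, 0.59 for homing and 0.98 for B-cell markers. On promoter peaks alone it was 0.25 for T-cell receptor genes, 0.19 for T-cell factors, 0.34 for chronic stimulation, 0.19 for homing, -0.083 for endothelial markers, -0.014 for ribosomal protein genes and -0.068 for zinc-finger genes, and after thinning 0.41 for endothelial markers. The cause of these shifts was not tested. No paired analysis was possible because the lymphomas carry no replicate numbers that they share with the normal groups, and the normal groups were not compared with each other. Depth limits the low end of spread, where SDs lay below Poisson counting.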
